A study of Mus musculus with 2 samples.

Results

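The Toll-like, NOD and innate signalling genes described here are 40 genes chosen by name for their place in microbial sensing: 12 Toll-like receptors, 3 proteins that help detect lipopolysaccharide, the adaptors and kinases below them, the NOD and NLRP sensors, NF-kB subunits and inhibitors, and the relay for cytosolic nucleic acids. They were found by symbol among the 43346 Ensembl genes of the deposited tables, and Mb21d1 was found under its synonym Cgas. All 40 were listed and all 40 passed the filter of a mean expected count of at least 10, which left 15711 genes for the tests. The samples were 2 polyadenylated RNA libraries made from sigmoid colon, all from 1 mouse, a female of strain C57BL/6J aged 10 weeks, with no treatment and no engineered allele named in the labels. The libraries carry the technical replicate numbers 1 and 2, and the labels state that the second was made in 2015 and was not among the data first published. Both come from the same animal, so SDs and tests below measure the difference between 2 libraries and say nothing of variation between mice.

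Toll-like receptors bind microbial molecules at the cell surface or inside endosomes and pass the signal through adaptors with a TIR domain to IRAK kinases and the ubiquitin ligase TRAF6. The signal ends in the release of NF-kB from its inhibitors. NOD receptors do the same in the cytosol for fragments of bacterial cell wall, while NLRP proteins and AIM2 assemble inflammasomes that activate caspase-1. In the colon these genes are used by epithelial cells, which face a dense microbiota, and by macrophages and other immune cells beneath them. In RNA from whole tissue, fewer cells of a type and less RNA per cell cannot be told apart.

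The libraries held 25843064 and 20681574 expected counts, given here and below with library 1 before library 2. They differed in much more than these genes. Genes of the mitochondrial genome and their 7 nuclear copies took 67.3% of all TPM (the transcript level per length, scaled to the same total in each library) in library 1 and 21.8% in library 2. The same TPM therefore stands for a larger share of nuclear transcripts in library 1: rescaling to nuclear protein-coding genes multiplies its values by 3.19 and those of library 2 by 1.33. The tissue label was checked against fixed marker lists. All 10 epithelial markers were at 1 TPM or more in both libraries (summed 1150 and 12615 TPM, with Lgals4 at 131 and 4020 TPM and Krt8 at 60.7 and 2931 TPM the highest by their mean), as were all 7 smooth muscle markers (394 and 4900 TPM). The 10 macrophage markers summed to 33.2 and 256 TPM, with C1qa at 1.56 and 66.9 TPM and C1qb at 0.55 and 66.7 TPM the highest by their mean. Mrc1, chosen after its values were seen, led that list in library 1 and went the other way, at 18.9 and 9.62 TPM. Called higher and lower in library 2, by the test given below, were 7 and 0 of the epithelial, 6 and 0 of the smooth muscle and 5 and 1 of the macrophage markers. Of all genes tested it was 36.9% and 28.1%. With the trend with GC content, described below, taken off, the lists had 3 and 2, 5 and 1, and 3 and 0. Of all genes tested it was then 12.4% and 11.1%.

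Summed over the 40 genes, the level came to 408 TPM in library 1 and reached 910 TPM in the other (659 ± 355, SD, n = 2 libraries). Per nuclear protein-coding transcript the order of the libraries was the reverse, with 1304 and 1208 TPM. At least 1 TPM was reached by 29 genes in library 1 and 38 in library 2, and the 29 were among the 38. The inflammasome group held the highest levels: Pycard at 27.2 and 136 TPM, Nlrp6 at 8.62 and 98.8 TPM, and Aim2 at 92.9 and 72.1 TPM. Tlr1 stood among them by its mean, at 58.4 and 51.6 TPM. Part of the Aim2 level, 39.5% in library 1 and 26.3% in library 2, lay in Aim2-206. This transcript of 383 bases is not annotated as protein-coding and had 173 and 56 counts. Nlrp3 at 0.10 and 0.45 TPM and Tlr11 at 0.44 and 0.60 TPM were the only genes of the set below 1 TPM in both libraries.

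**Figure D1:**
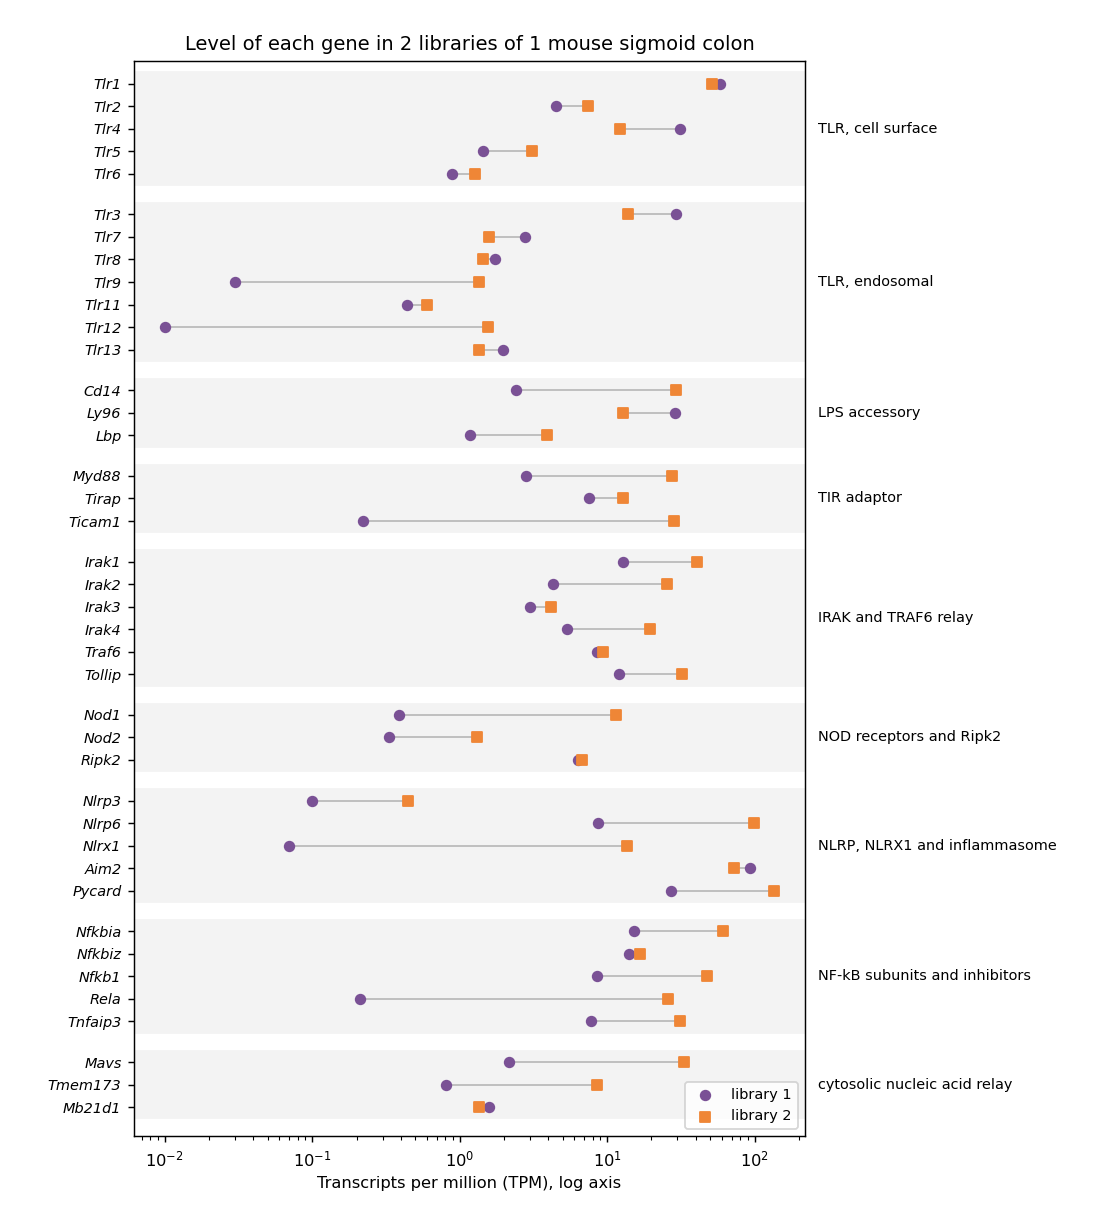
Level of each of the 40 genes in library 1 (circles) and library 2 (squares) in TPM on a log axis, grouped by role. Aim2 and Tlr1 lie near each other in both libraries, while Rela, Ticam1 and Nlrx1 sit below 1 TPM in library 1 and above 10 TPM in library 2.

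Differences between the libraries were measured as the log2 ratio of counts, library 2 over library 1, after scaling each library by TMM, a factor that takes most genes as equal. Counts were compared per gene by an exact binomial test, two-sided, with Benjamini-Hochberg adjustment over all genes tested, and a gene was called at an adjusted p under 0.05 and a difference of at least 2-fold. It covers counting error only, as do the 95% intervals given with the ratios. Of the 40 genes, 16 were called higher in library 2, against 36.9% of all genes tested, and 11 were called lower, against 28.1%. The other 13 were not called. In all 65.0% of the genes tested were called, so these counts are near those of the whole table and set the list apart in neither direction. The median log2 ratio was 0.38 for the 40 genes and 0.12 for all genes tested. The median over all genes was 0.40 when libraries were scaled by nuclear counts and 1.18 on the TPM scale, so a ratio near 0 can change its sign with the scaling. On the TPM scale 23 of the 40 genes were at least 2-fold higher, against 53.6% of all genes, and 3 were at least 2-fold lower (Tlr3, Tlr4 and Ly96), against 4.82%. The other 8 genes called lower on scaled counts were less than 2-fold apart there, among them Tlr1 at -0.18, Aim2 at -0.37 and Mb21d1 at -0.19.

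**Figure D2:**
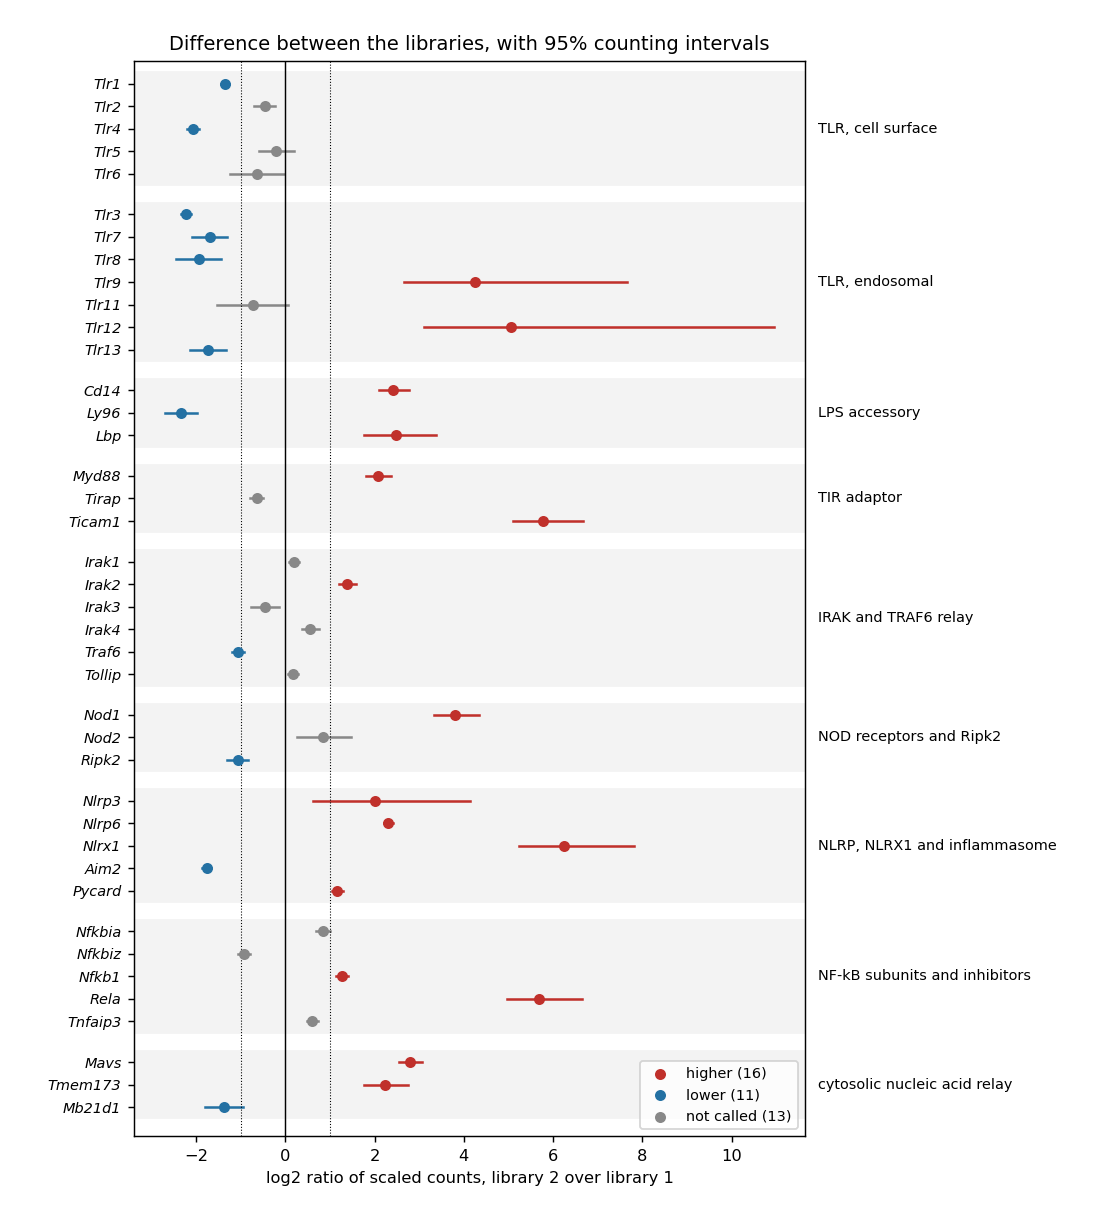
Log2 ratio of scaled counts, library 2 over library 1, for the 40 genes by role, with exact 95% counting intervals as lines and dotted lines at 2-fold. The 16 genes called higher reach 6.25 (Nlrx1), the 11 called lower reach -2.33 (Ly96), and 13 were not called.

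The cell-surface receptors summed to 96.4 TPM in library 1 and 75.5 TPM in library 2. Tlr1, which pairs with TLR2 to bind triacylated lipopeptides, had 3465 and 1832 counts and was called lower in library 2, with a log2 ratio of -1.35 (interval -1.43 to -1.27). Tlr4, the lipopolysaccharide receptor, had 2117 and 680 counts, at 31.1 and 12.2 TPM, and was called lower with a log2 ratio of -2.07 (interval -2.19 to -1.94). Tlr2, Tlr5 and Tlr6 were not called: Tlr2, the shared partner for lipopeptides, was at 4.51 and 7.37 TPM, Tlr5, the flagellin receptor, at 1.45 and 3.10 TPM, and Tlr6, which pairs with TLR2 for diacylated lipopeptides, at 0.89 and 1.28 TPM. Log2 ratios were negative for all 5 on scaled counts, but on the TPM scale those of Tlr2, Tlr5 and Tlr6 were positive, with Tlr5 past 2-fold at 1.05, and scaling by nuclear counts put that of Tlr5 at 0.08. Within a library, Tlr1 stood 65.6 times above Tlr6 in library 1 and 40.3 times in library 2. These neighbouring genes share part of their sequence: 21.9% of the 31-base words of Tlr1 also occur in Tlr6, and 16.6% of those of Tlr6 occur in Tlr1. Reads from the shared part were split by the authors' model, with a deposited posterior SD of 0.85 counts in library 1 and 1.76 in library 2.

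The endosomal receptors summed to 36.5 and 21.8 TPM, of which Tlr3, the receptor for double-stranded RNA, made up most. Tlr3 had 2870 and 822 counts, at 29.5 and 13.9 TPM, and was called lower in library 2 with a log2 ratio of -2.23 (interval -2.35 to -2.12). Tlr7 and Tlr8, receptors for single-stranded RNA, were at 2.78 and 1.59 TPM and at 1.75 and 1.44 TPM. Tlr13, which binds bacterial ribosomal RNA, was at 1.98 and 1.35 TPM. Tlr7, Tlr8 and Tlr13 were called lower in library 2, with log2 ratios of -1.69, -1.93 and -1.73, which were -0.77, -0.26 and -0.52 on the TPM scale. Tlr9 and Tlr12 went the other way from a library 1 level of almost nothing. Tlr9, the receptor for unmethylated CpG DNA, had 2 counts in library 1 and 64 in library 2, a log2 ratio of 4.26 with an interval of 2.66 to 7.65. Tlr12, which recognises the parasite protein profilin, had 1 and 67 counts, a log2 ratio of 5.06 with an interval of 3.11 to 10.96. Both were called higher. Tlr11, also a receptor for profilin, had 32 and 26 counts and was not called (adjusted p = 0.082 by the exact binomial test). The 12 receptors together thus included 2 called higher, against 36.9% of all genes tested, and 6 called lower, against 28.1%. Their median GC content was 44.9%. With the GC trend taken off 1 was higher and 0 were lower, against 12.4% and 11.1% of all genes tested.

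The 3 genes for lipopolysaccharide detection did not move as one. Ly96 encodes MD2, the part of the TLR4 complex that holds the lipid, and had 307 and 82 counts, at 28.8 and 12.7 TPM (log2 ratio -2.33, interval -2.70 to -1.98). It was called lower, and its level kept close to that of Tlr4, which stood at 1.08 times Ly96 in library 1 and 0.955 times in library 2. Cd14, the co-receptor that hands lipopolysaccharide to that complex and a gene of macrophages, had 81 and 587 counts, at 2.43 and 29.3 TPM, and was called higher with a log2 ratio of 2.42. Tlr4 was accordingly 12.8 times the level of Cd14 in library 1 and 0.415 times in library 2. Lbp, the secreted lipopolysaccharide-binding protein, had 16 and 124 counts, at 1.18 and 3.90 TPM, and was called higher with a log2 ratio of 2.49 (interval 1.77 to 3.38). Among the macrophage markers, 5 of 10 were called higher with Cd14 and 1 was called lower, against 36.9% and 28.1% of all genes tested. The part of these markers in the Cd14 difference was not tested.

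The TIR adaptors summed to 10.6 and 68.6 TPM. Myd88, the adaptor of nearly all Toll-like receptors, had 124 and 710 counts, at 2.84 and 27.4 TPM, and was called higher with a log2 ratio of 2.08. Ticam1 encodes TRIF, the adaptor of TLR3 and of endosomal TLR4. It had 15 counts in library 1 and 1144 in library 2, at 0.22 and 28.3 TPM, and was called higher with a log2 ratio of 5.78 (interval 5.10 to 6.67). Tirap, the bridge between MYD88 and the receptors TLR2 and TLR4, had 788 and 681 counts, at 7.57 and 12.8 TPM, and was not called at a log2 ratio of -0.64. In library 1 Ticam1 was therefore the lowest adaptor, while in library 2 it stood beside Myd88. Exons of Myd88 overlap 290 bases of Acaa1a on the opposite strand, which was at 2.35 and 89.0 TPM, and those of Tirap overlap 39 bases of Srpr, so where strand was not used in counting some of their reads could belong to these neighbours.

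The IRAK and TRAF6 relay summed to 46.1 and 131 TPM and held mostly genes that were not called. Irak1, a kinase recruited by MYD88, had 1015 and 1572 counts at 12.9 and 40.5 TPM, with a log2 ratio of 0.20. Irak4, the kinase that acts first in the complex, was at 5.36 and 19.7 TPM with a log2 ratio of 0.56. Irak3, an inhibitory member that is best known in macrophages, was at 2.98 and 4.16 TPM with a log2 ratio of -0.46, and Tollip, an adaptor that restrains IRAK1, was at 12.0 and 32.2 TPM with a log2 ratio of 0.17. None of these 4 passed the 2-fold threshold on scaled counts, but on the TPM scale Irak1 at 1.65, Irak4 at 1.86 and Tollip at 1.41 did. Irak2, the kinase of late signalling, had 288 and 1012 counts and was called higher with a log2 ratio of 1.38 (interval 1.19 to 1.58). Traf6 had 1172 and 756 counts and was called lower at -1.06 on scaled counts, but on the TPM scale its log2 ratio was 0.13, from 8.56 and 9.35 TPM. Irak4 shares 395 exon bases with Twf1, and Irak3 shares 192 with Tmbim4, each on the opposite strand, and these neighbours were at 68.7 and 82.1 TPM and at 77.4 and 162 TPM.

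Both NOD receptors, unlike Ripk2, were low in library 1. Nod1, which detects peptidoglycan fragments typical of Gram-negative bacteria, had 36 and 682 counts, at 0.39 and 11.5 TPM, and was called higher with a log2 ratio of 3.80 (interval 3.33 to 4.34). Nod2, the sensor of muramyl dipeptide and a susceptibility gene of Crohn's disease, had 35 and 85 counts, at 0.33 and 1.32 TPM, and was not called at 0.84 (interval 0.27 to 1.46), although it passed 2-fold on the TPM scale at 1.72. The level of Nod1 was 1.18 times that of Nod2 in library 1 and 8.73 times in library 2. Ripk2, the kinase both receptors use, had 382 and 245 counts and was called lower at -1.07 on scaled counts, while on the TPM scale its ratio was 0.10, from 6.34 and 6.78 TPM.

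The inflammasome group summed to 129 and 321 TPM, the most of any role. Rescaled to nuclear protein-coding genes the sums were near each other, at 411 and 426 TPM. Nlrp6, a sensor expressed in intestinal epithelium, had 882 and 5888 counts and was called higher with a log2 ratio of 2.31 (interval 2.21 to 2.41). Pycard encodes ASC, the adaptor that links sensors to caspase-1, and had 796 and 2403 counts and was called higher at 1.16 (interval 1.05 to 1.28). Aim2, a sensor of cytosolic DNA, had 2944 and 1167 counts and was called lower at -1.76 (interval -1.86 to -1.67). Nlrp6 and Aim2 thus moved in opposite directions between the libraries, and which of them was the higher in TPM changed with the library. Nlrx1, a mitochondrial member of the family that restrains antiviral signalling, had 6 counts in library 1 and 666 in library 2, at 0.07 and 13.6 TPM, and its log2 ratio of 6.25 (interval 5.24 to 7.82) was the highest among the 40 genes. Nlrp3, the sensor of many danger signals in myeloid cells, had 4 and 24 counts, and was called higher at 2.02 with a wide interval of 0.61 to 4.14. Nlrp6 was 86.2 times the level of Nlrp3 in library 1 and 220 times in library 2.

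The NF-kB genes summed to 45.9 and 183 TPM. Rela, the main activating subunit, had 13 counts in library 1 and 939 in library 2, at 0.21 and 25.8 TPM, and was called higher with a log2 ratio of 5.69 (interval 4.96 to 6.66). Nfkb1, its usual partner, had 578 and 1870 counts, at 8.56 and 47.8 TPM, and was called higher at 1.26. The ratio of the partners fell from 40.8 Nfkb1 transcripts per Rela transcript in library 1 to 1.86 in library 2. The inhibitor and target genes Nfkbia, Tnfaip3 and Nfkbiz were not called, although on the TPM scale Nfkbia at 2.00 and Tnfaip3 at 2.00 passed 2-fold. Nfkbia, which encodes the inhibitor that holds NF-kB in the cytosol, was at 15.2 and 61.0 TPM with a log2 ratio of 0.84, Tnfaip3, a ubiquitin-editing enzyme that ends signalling, at 7.80 and 31.4 TPM with 0.61, and Nfkbiz, a nuclear cofactor, at 14.1 and 16.7 TPM with -0.93.

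Nfkbia and Tnfaip3 are textbook NF-kB targets and were picked by name to show their promoter sequences. Each held 2 matches to the motif searched, and so did windows of Nlrp3, Nlrx1, Nod1 and Tlr2, which are not shown. The 250 bases before the start site were taken from RefSeq promoters on GRCm38.p6 and searched on both strands for GGGNNTTCC or GGANNTTCC, letters common to NF-kB sites, where both strands may match the same place. The sequences run 5′ to 3′ on the gene's strand with the matches in capitals, Nfkbia from chr12:55492648-55492897 and Tnfaip3 from chr10:19015411-19015660, both on the minus strand.
Nfkbia: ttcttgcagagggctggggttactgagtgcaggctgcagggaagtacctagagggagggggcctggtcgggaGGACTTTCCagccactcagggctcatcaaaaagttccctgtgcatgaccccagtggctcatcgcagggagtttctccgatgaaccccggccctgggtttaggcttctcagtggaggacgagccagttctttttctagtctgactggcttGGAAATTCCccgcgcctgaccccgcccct
Tnfaip3: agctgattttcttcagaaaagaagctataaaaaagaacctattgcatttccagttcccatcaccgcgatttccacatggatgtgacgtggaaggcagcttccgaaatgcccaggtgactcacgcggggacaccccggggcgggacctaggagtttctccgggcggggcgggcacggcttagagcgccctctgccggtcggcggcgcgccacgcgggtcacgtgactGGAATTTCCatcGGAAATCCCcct
The Nfkbia matches lie at -178 to -170 and at -29 to -21 from the start site, and the Tnfaip3 matches at -24 to -16 and at -12 to -4. Of the 31 genes of the set with a promoter in the table, 9 held at least 1 match (29%): Nfkbia, Tnfaip3, Nlrp3, Nlrx1, Nod1, Nod2, Tirap, Tlr2 and Tlr3. Of all 27025 genes with a promoter, 9.46% did. A match is a string of letters and was not tested for binding, and the 9 genes included ones called higher, called lower and not called.

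The nucleic acid relay summed to 4.55 and 43.3 TPM. Mavs, the mitochondrial adaptor of RNA sensors, had 141 and 1330 counts, at 2.17 and 33.4 TPM, and was called higher with a log2 ratio of 2.80 (interval 2.56 to 3.07). Tmem173 encodes STING, the receptor for cyclic dinucleotides, and had 41 and 262 counts, at 0.81 and 8.59 TPM, called higher at 2.23. Mb21d1 encodes cGAS, the DNA sensor that makes the STING ligand, and had 142 and 74 counts, at 1.57 and 1.36 TPM, called lower at -1.36 (interval -1.80 to -0.95). The receptor was thus at 0.516 times the level of the enzyme above it in library 1 and 6.32 times in library 2.

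Which way a gene moved followed the base composition of its transcripts. GC content was the TPM-weighted mean over a gene's transcripts, from GENCODE M21 sequences on GRCm38. All 5 genes of the set below 42% GC were called lower in library 2, namely Tlr3, Tlr4, Tlr7, Tlr8 and Ly96, as were 96.6% of the 1727 genes tested in that range. Between 51 and 54% GC, 7 of 9 genes of the set were called higher, against 54.9% of all genes there. From 54 to 57% GC it was 5 of 6 against 87.0%, and above 57% GC it was Nlrx1 and Rela, both higher, against 95.7%. Across the 40 genes the log2 ratio and GC content had Pearson's r = 0.89 and Spearman's rho = 0.925, and across 15664 genes tested r = 0.843 and rho = 0.903. These are correlations across genes of the same 2 libraries, and genes are not independent replicates. The set follows the trend of the whole table, and what made the 2 libraries differ was not tested.

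Coding stretches of 120 bases show the contrast for 2 genes of low and 2 of high GC content, picked by name and not by rank. Each is the first stretch in frame with the same share of G and C as the whole coding sequence of the transcript, taken from GENCODE M21, all exonic, with G and C in capitals. Tlr4 (chr4:66827584-66930284, plus strand) is shown from coding base 85 to 204, Tlr3 (chr8:45395665-45411080, minus strand) from 55 to 174, Nlrx1 (chr9:44252717-44268599, minus strand) from 19 to 138 and Rela (chr19:5637483-5648130, plus strand) from 4 to 123.
Tlr4: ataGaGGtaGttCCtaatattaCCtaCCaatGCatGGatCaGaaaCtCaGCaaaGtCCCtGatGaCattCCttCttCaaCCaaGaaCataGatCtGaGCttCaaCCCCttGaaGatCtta
Tlr3: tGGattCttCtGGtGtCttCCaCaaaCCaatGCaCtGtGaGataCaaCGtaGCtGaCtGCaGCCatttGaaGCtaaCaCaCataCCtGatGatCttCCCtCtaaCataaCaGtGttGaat
Nlrx1: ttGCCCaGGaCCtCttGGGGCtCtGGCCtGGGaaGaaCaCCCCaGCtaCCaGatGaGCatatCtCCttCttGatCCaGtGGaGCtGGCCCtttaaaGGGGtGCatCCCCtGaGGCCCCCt
Rela: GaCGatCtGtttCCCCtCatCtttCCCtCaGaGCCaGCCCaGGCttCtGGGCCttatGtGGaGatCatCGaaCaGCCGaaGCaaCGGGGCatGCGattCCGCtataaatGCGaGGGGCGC
The Tlr4 stretch holds 48 G and C bases and the Tlr3 stretch 51, while Nlrx1 has 71 and Rela 69. Tlr4 and Tlr3 had log2 ratios of -2.07 and -2.23, and Nlrx1 and Rela 6.25 and 5.69. Not every gene of the set with a GC-rich coding sequence had a high ratio. Tirap, with 59.3% GC in its coding sequence, had -0.64, and Nfkbiz, with 57.1%, had -0.93. The GC content over the whole transcripts of these genes was 48.33 and 49.45%.

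**Figure D3:**
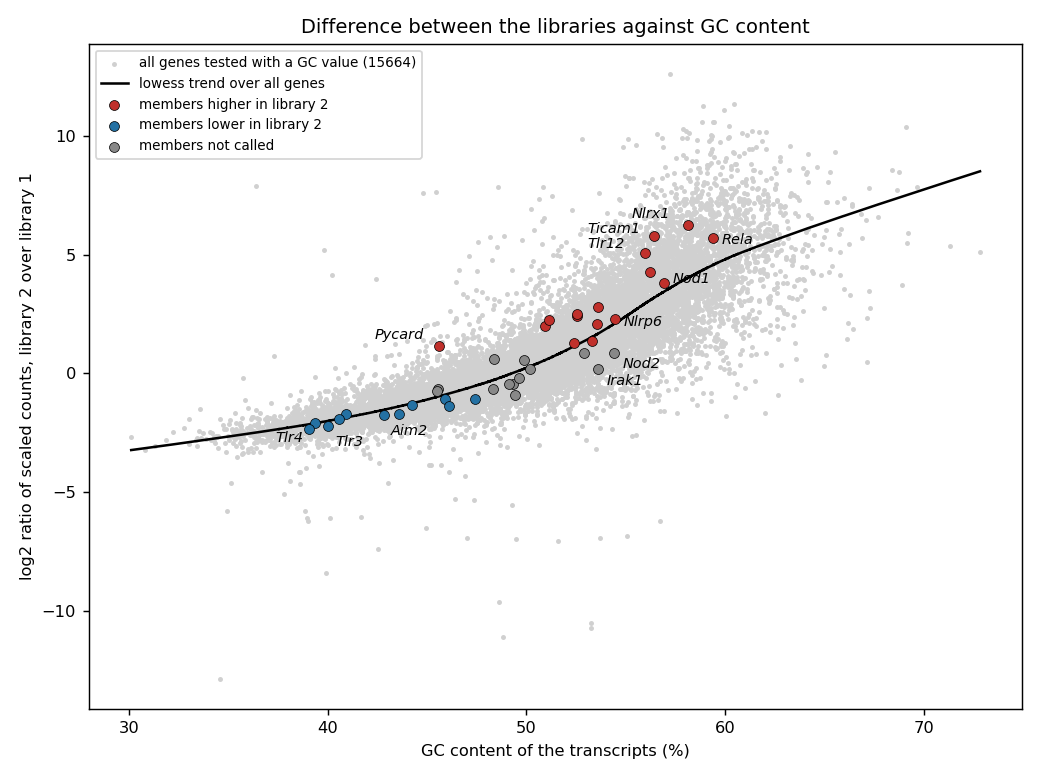
Log2 ratio of scaled counts, library 2 over library 1, against the GC content of the transcripts in percent: each gene tested with a GC value in grey, the lowess trend over them as a line, and the 40 genes in colour by call. The 40 genes run from Ly96, Tlr4 and Tlr3 at the lower left to Nlrx1 and Rela at the upper right. Ticam1 (2.60), Nlrx1 (2.23), Pycard (2.12) and Tlr12 (2.11) lie furthest above the trend, and Irak1 (-1.46) and Nod2 (-1.24) furthest below it. The GC content of Pycard comes from a longer sequence than the deposited transcript.

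When the lowess trend with GC was taken off, 9 of the 40 genes were called higher, against 12.4% of all genes tested, and 2 were called lower, against 11.1%. The 9 were Nlrx1, Ticam1, Tlr12, Rela, Mavs, Lbp, Cd14, Tmem173 and Pycard. Ticam1 kept a log2 ratio of 2.60 above the trend, Nlrx1 2.23, Tlr12 2.11, Tmem173 1.59, Lbp 1.29, Cd14 1.23, Mavs 1.14 and Rela 1.13. The value of Pycard, 2.12, is not a like correction, since its GC content of 45.6% comes from a sequence of 3800 bases while the deposited length of its transcript is 1405; its coding part alone has 54.4% GC. The 2 called lower were Irak1 at -1.46 and Nod2 at -1.24, whose ratios on scaled counts were 0.20 and 0.84. None of the 11 genes called lower without the correction was called after it, among them Tlr4 at 0.03, Ly96 at -0.19, Aim2 at -0.23 and Tlr1 at -0.09. Myd88 at 0.43, Nod1 at 0.36, Nlrp6 at 0.20 and Nfkb1 at 0.12 also lay close to the trend.

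Transcript shares were read for the 12 genes at a mean of at least 5 TPM with more than 1 transcript at 10% or more. In 5 of them, Irak1, Irak2, Nod1, Nlrx1 and Nfkb1, the leading transcript differed between the libraries. For Nod1, transcript Nod1-202 took 100% of the level in library 1, on 36 counts, and Nod1-201 took 91.5% in library 2. The authors' posterior shares of these 2 in library 1 were 76.2 and 23.8%. Nod1-201 has 344 bases of its own at the 5′ end, with 70.6% GC, where Nod1-202 has 93 bases with 48.4% GC. For Irak2, Irak2-202 took 100% in library 1 and Irak2-201 took 81.3% in library 2. The 222 exon bases found in Irak2-201 and not in Irak2-202 have 59.9% GC, against 52.6% for Irak2-202 as a whole. Nlrx1-201 took 100% of the Nlrx1 level in library 1, on 6 counts, and Nlrx1-202 took 86.7% in library 2. The authors' posterior shares in library 1 were 48.7% for Nlrx1-201, 27.6% for Nlrx1-202 and 23.7% for Nlrx1-203. For Nlrx1 too the bases of the library 2 leader alone were the richer in GC (55.6 against 48.7%). Irak1-204 led with 87.4% in library 1 and Irak1-206 with 45.4% in library 2, but the longer of these has only 10 bases that the other lacks, and the authors' posterior shares in library 1 were 42.3 and 36.5%. For Nfkb1 the leaders were Nfkb1-201 with 39.0% in library 1 and Nfkb1-206 with 32.0% in library 2. Here GC went the other way: the 7 bases that only Nfkb1-206 holds have 42.9% GC, against 54.1% for the 1117 bases that only Nfkb1-201 holds. The other seven, Tlr3, Tlr4, Tirap, Irak4, Aim2, Tnfaip3 and Mavs, had the same leader in both libraries: Tlr4-201, for one, took 69.0 and 99.6%, and Aim2-204 took 46.4 and 48.6%.

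**Figure D4:**
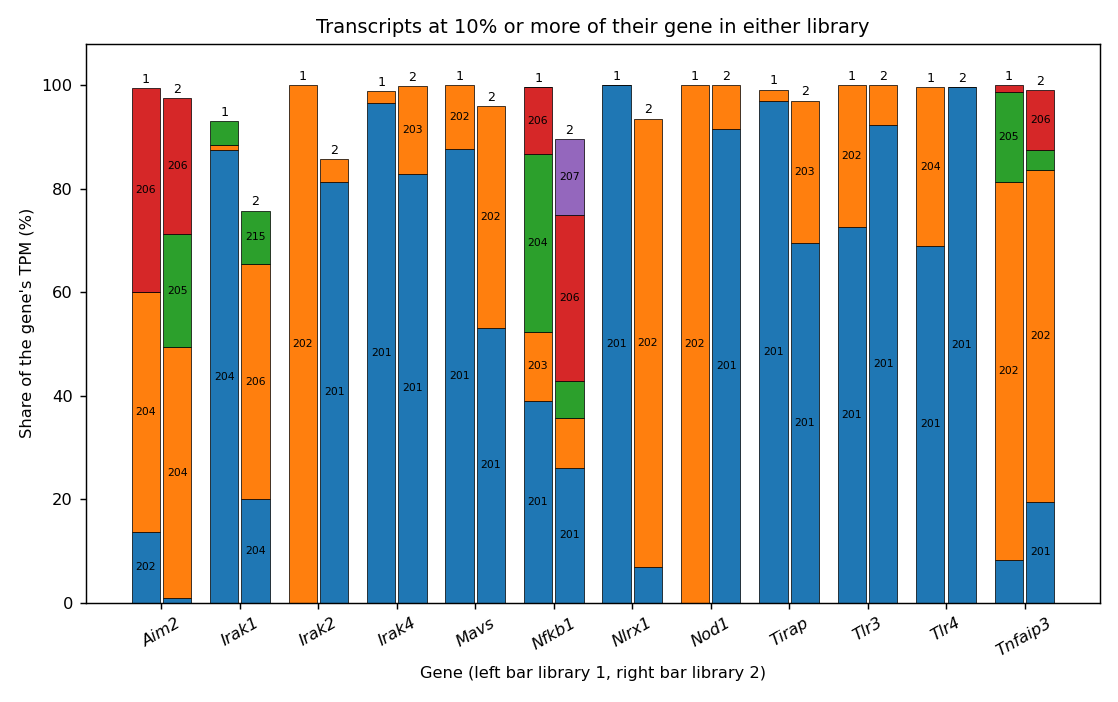
Share of each gene's TPM in percent taken by its transcripts that reach 10% in either library, for 12 genes, with library 1 on the left and library 2 on the right of each pair. Colours mark transcripts within a gene and the numbers are their name suffixes; Irak2 and Nod1 pass from suffix 202 to suffix 201 between the bars.

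Beyond the 40 genes, 84 other genes of these pathways were listed, of which 69 could be tested. Of these 30 were called higher and 21 lower in library 2, with a median log2 ratio of 0.03. Beside the 36.9% higher and 28.1% lower of all genes tested, these counts too are near the background. With the GC trend taken off they were 14 higher and 4 lower, against 12.4% and 11.1% of all genes tested. In the list of receptor trafficking and extra adaptors, 5 of 7 tested were higher and 1 lower: Hsp90b1, the chaperone that folds Toll-like receptors, was at 392 and 252 TPM and was the gene called lower, while Unc93b1, which carries endosomal receptors to their place, was at 0.58 and 51.6 TPM and Cnpy3, a co-chaperone, at 1.01 and 27.3 TPM. Unc93b1 thus was higher in library 2 with Tlr9 and Tlr12, while Tlr3, Tlr7, Tlr8 and Tlr13 were lower. With the GC trend taken off, 4 of the 7 trafficking and adaptor genes tested were higher and 0 lower. In the TAK1 and IKK relay 7 of 19 were higher and 8 lower, led by the kinase gene Chuk at 83.7 and 60.5 TPM, Ube2v1 at 20.9 and 102 TPM and Tab2 at 47.9 and 51.5 TPM. With the GC trend taken off, 3 of the 19 were higher and 1 lower. Of the 10 other NF-kB subunits and inhibitors 9 were higher, among them Tnip1 at 1.60 and 83.6 TPM, Relb at 1.61 and 44.7 TPM, and Nfkbib at 0.04 and 29.1 TPM from 1 and 449 counts (log2 ratio 7.80, interval 5.90 to 13.69). The median GC content of that list was 57.4%, and of all genes tested above 57% GC 95.7% were called higher. With the GC trend taken off, 2 of the 10 were higher and 2 lower, against 12.4% and 11.1% of all genes tested. The median log2 ratio of the list was then -0.03.

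In the IRF and TBK1 list 6 of 7 were higher and none was lower, with Irf1 at 8.83 and 151 TPM, Irf7 at 24.3 and 61.7 TPM and Irf3 at 5.44 and 80.1 TPM, all transcription factors of the interferon response. The median GC content of that list was 55.4%, and of all genes tested from 54 to 57% GC 87.0% were called higher. With the GC trend taken off, 1 of the 7 was higher and 1 lower, against 12.4% and 11.1% of all genes tested. Among RIG-I-like and other nucleic acid sensors 2 of 7 were higher and 3 lower, with Ifih1 at 38.8 and 30.4 TPM, Trim25 at 18.3 and 49.2 TPM and Dhx36 at 29.9 and 15.2 TPM. With the GC trend taken off, 1 of these 7 sensors was higher and 0 lower. Of 14 other NLR and inflammasome genes tested 1 was higher and 7 lower, against 36.9% and 28.1% of all genes tested. That list had a median GC content of 45.9%. From 45 to 48% GC, 2.09% of all genes tested were called higher and 33.55% lower. With the GC trend taken off, 1 of the 14 was higher and 0 lower. Il18, the cytokine that caspase-1 releases, was at 379 and 173 TPM and Casp1 itself at 208 and 128 TPM, both called lower, above any of the 40 genes in both libraries except that Pycard exceeded Casp1 in library 2. Naip1, a sensor of bacterial secretion needles and one of several related Naip genes, was at 73.4 and 78.4 TPM, and Nlrp12 had 0 counts in both. Each 0 allows up to 3 counts, which is 0.116 CPM (counts scaled to the library total) in library 1 and 0.145 in library 2. The 17 cytokine and chemokine genes that NF-kB induces were low, with 5 tested, 1 called lower and a sum of 14.7 and 24.2 TPM. Ccl20 at 5.62 and 8.37 TPM, Cxcl10 at 2.43 and 5.15 TPM and Ccl2 at 2.40 and 4.17 TPM were the highest of them, and Ccl4, Ifnb1 and Csf3 had 0 counts in both libraries. With the GC trend taken off, 2 of the 5 cytokine and chemokine genes tested were higher and 0 lower.

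**Figure D5:**
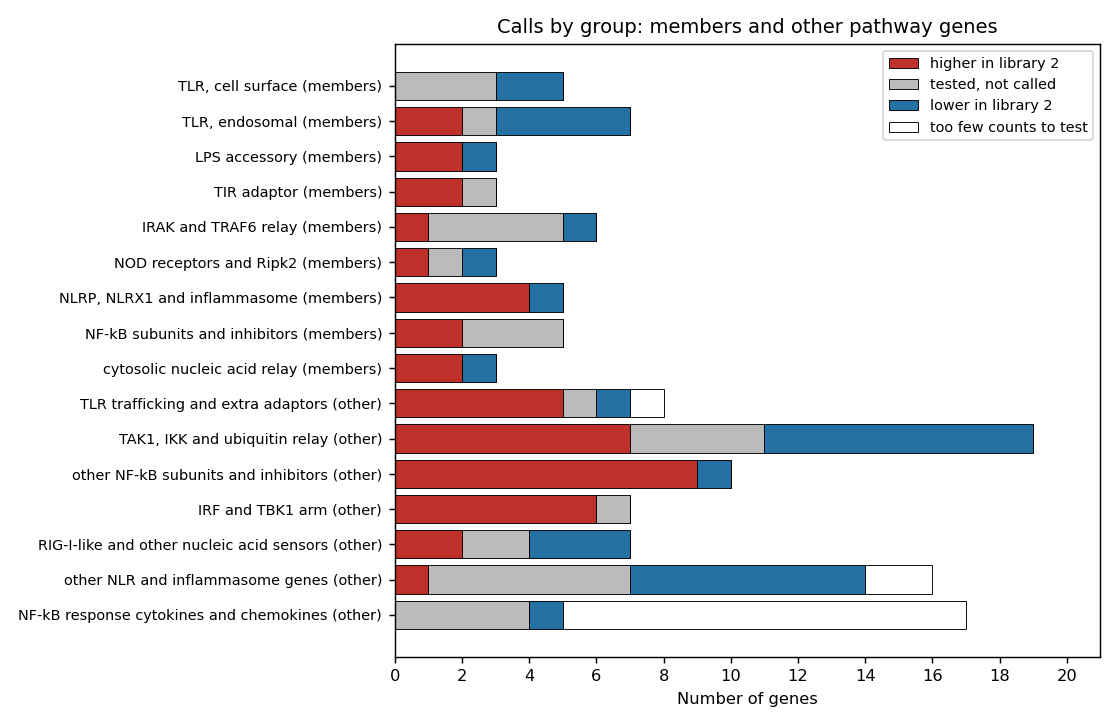
Number of genes called higher, called lower, tested and not called, or with too few counts to test, for the 9 roles of the 40 genes (members) and for the 7 lists of other pathway genes. The other NF-kB subunits and inhibitors are nearly all higher (9 of 10), and 12 of 17 cytokine and chemokine genes had too few counts to test.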

How the data were processed

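RNA was sequenced in 2 technical libraries of 1 mouse. Per the text files deposited with the tables, the assembly is mm10 and the annotation GENCODE M4. Which aligner, quantifier and strand setting were used is not given in the sources used here. The authors deposited expected counts (reads shared out by a model), TPM and, for transcripts, a percent of the gene's level, per the file headers.

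The members and gene lists were chosen with earlier results of these data known. Named were all 40 members, the 3 genes of highest mean TPM in each pathway list with any at 0 counts in both libraries, and up to 2 of each marker list. Counts for every pathway and marker list stand in the report or the closing section.

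Expected counts were rounded for an exact binomial test on TMM sizes (edgeR 4.0.16, R 4.3.3) with Benjamini-Hochberg adjustment over 15711 genes with a mean count of at least 10. Ratios carry a prior count of 0.5. With 1 library on each side, edgeR's quasi-likelihood test and DESeq2 have no residual degrees of freedom. The code was tested on simulated counts. Positions, GC content and sequences came from GENCODE M21 and RefSeq on GRCm38, the assembly of mm10. Of the deposited transcripts 97.9% had a sequence there and 88.2% the same length. GC and length trends were lowess fits (fraction 0.2). Alternatives covered scaling, the measure, the filter, the prior count, the test and these trends.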

Additional observations from a re-analysis of the deposited data

How the results depend on the processing

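Of the 40 genes, 23 had the same sign of the log2 ratio in each setting tried, and 30 had it in each setting without a GC correction. Cd14, Lbp, Mavs, Nlrx1, Rela, Ticam1, Tlr12 and Tmem173, 8 genes in all, had the same call wherever they were tested. DESeq2 size factors and a prior count of 2 changed no call among the 40. With the GC trend taken off, 9 members were called higher and 2 lower with a median log2 ratio of 0.0747, and 14 and 4 of the other pathway genes. Of all genes tested 12.4% were then higher and 11.1% lower. With GC and length trends both taken off, a setting chosen after seeing the data, it was 10 and 2 members and 10 and 6 pathway genes. Of all genes tested it was 10.6% and 11.7%. The length trend alone gave a median of 0.0741. On the TPM scale 23 members and 36 pathway genes were higher (53.6% of all genes) and 3 and 2 were lower (4.82%), and the members' median was 1.55. In edgeR's exact test with an assumed biological coefficient of variation of 0.4, 11 members and 21 pathway genes were higher (24.1% of all genes) and 2 and 3 were lower (4.77%). The members' mean summed level of 659 TPM ranged from 408 to 910 TPM with 1 library left out. Rescaled to nuclear protein-coding genes the mean was 1256 TPM.

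Signs turned for these genes, given with their log2 ratio there. On the TPM scale they were Tlr2 0.70, Tlr5 1.05, Tlr6 0.48, Tlr11 0.37, Tirap 0.75, Irak3 0.47, Traf6 0.13, Ripk2 0.10 and Nfkbiz 0.24. With nuclear counts for scaling it was Tlr5 at 0.083. With the GC trend taken off they were Tlr4 0.027, Tlr6 0.34, Tlr7 0.16, Tlr11 0.27, Irak1 -1.46, Irak2 -0.15, Tollip -0.13, Nod2 -1.24 and Nfkbia -0.51. With the length trend taken off it was Nfkbia at -0.069. With both taken off they were Tlr4 0.16, Tlr6 0.36, Tlr7 0.29, Tlr8 0.032, Tlr11 0.36, Irak1 -1.37, Irak2 -0.10, Traf6 0.11, Nod2 -1.03 and Nfkbia -0.69. The GC content of Tlr6 comes from a sequence of 3677 bases while the deposited length is 2603. Its values with a GC correction are therefore not a like correction. The cause of these changes was not tested, other than that each setting removes or rescales what its name says.

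Tlr9, Tlr12 and Nlrp3 rest on 4 counts or fewer in library 1, which limits how large their differences can be said to be. No paired analysis was possible because both libraries belong to 1 group and 1 mouse.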

Other observations

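Irak3 lies below the level set for transcript shares and was chosen after its values were seen. Its leading transcript was Irak3-205 with 70.0% of the level in library 1 and Irak3-201 with 93.2% in library 2. Irak3-201 has 350 exon bases that Irak3-205 lacks, 333 of them at the 5′ end, and these have 69.7% GC. Below that level the leader also differed for Tlr5, Tlr8, Lbp and Nlrp3. The library 2 leader's own bases had 48.9% GC for Tlr5, against 49.5% for the whole library 1 leader. For Lbp it was 53.6 against 51.4%. For Nlrp3, on 4 and 24 counts, the library 2 leader's own bases had 51.3% GC, against 32.1% for those of the library 1 leader. For Tlr8 only the library 1 leader had bases of its own, with 43.6% GC against 39.8% for the whole library 2 leader.

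The deposited interval for the level of Tlr13 runs from 1.69 to 107 TPM in library 1 and from 1.15 to 128 TPM in library 2, although its TPM was 1.98 and 1.35. The gene has a second annotated transcript of 119 bases, Tlr13-202, with 0 counts in both libraries, to which the authors' posterior shares give 94.8 and 97.1% of the gene. The posterior mean level of the endosomal receptors, with Tlr13 among them, was accordingly 68.8 TPM where the TPM values gave 29.1.

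Of the other marker lists, neutrophil markers summed to 38.5 and 129 TPM, of which Ly6g took 33.2 and 120 TPM and S100a8 3.66 and 2.60 TPM, while Mpo had 0 counts in both libraries. Of the 5 neutrophil markers tested, 1 was called higher and 1 lower. For each list here, the shares over all genes tested were 36.9% higher and 28.1% lower. B and plasma cell markers summed to 424 and 463 TPM, nearly all from Jchain at 405 and 391 TPM, followed by Ms4a1 at 15.4 and 8.03 TPM. Both of these were called lower in library 2, while the list's other 4 of 6 genes were called higher. T cell markers summed to 3.62 and 17.3 TPM (1 of 6 called higher, 0 lower) and dendritic cell markers to 5.39 and 12.3 TPM (1 of 7 higher, 3 lower). Fibroblast markers summed to 627 and 827 TPM (2 of 6 higher, 2 lower) and endothelial markers to 22.2 and 69.4 TPM (3 of 6 higher, 1 lower). Rescaled to nuclear protein-coding genes, the order of the libraries was the reverse for the fibroblast list, at 2000 and 1098 TPM. It was also the reverse for the B and plasma cell list, at 1354 and 615 TPM, and the dendritic cell list, at 17.2 and 16.3 TPM. Hepatocyte markers, listed as a check for another tissue, summed to 4.07 and 39.1 TPM, of which Ttr took 3.39 and 36.5 TPM, and of 2 tested 1 was called higher and 0 lower.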
